A study of Arabidopsis thaliana with 134 samples.

Results

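CCA1, LHY and the REVEILLE (RVE) genes encode a family of MYB transcription factors at the centre of the Arabidopsis circadian clock. The 8 genes described here, of 28775 in the deposited table, were fixed by their locus identifiers: CCA1 (AT2G46830), LHY (AT1G01060), RVE1 (AT5G17300), RVE2 (AT5G37260, also called CIR1), RVE7 (AT1G18330, also called EPR1), RVE4 (AT5G02840), RVE6 (AT5G52660) and RVE8 (AT3G09600). Whole seedlings aged 12 days were sampled at zeitgeber time (ZT, hours after lights-on) 10 h on a cycle with 8 h of light and 16 h of darkness. They were harvested either after 2 h of extended light or after 2 h of darkness that began at ZT 8 h. All seedlings were grown with 3% sucrose at 22 °C, after 4 days of seed stratification. The plants were 65 recombinant inbred lines (RILs) derived from a cross of the accessions Tnz-1 and Ws-2, and the 2 parents themselves. A RIL is a line inbred from such a cross until its mixture of parental segments no longer changes. The labels call each of them WT with a number. Each line and each parent gave 1 library per condition, so the data hold 65 light and 65 dark RIL libraries and 1 light and 1 dark library each of Tnz-1 and Ws-2, or 134 in all. Seeds were sown in clusters of about 50, so each library pools seedlings. The light and dark plants stood in different growth cabinets, so light and cabinet cannot be told apart in the comparisons of light with dark.

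CCA1 and LHY are morning factors that repress genes expressed in the evening. They bind the evening element, a DNA motif in the promoters of such genes, and the evening genes in turn repress CCA1 and LHY, which closes a feedback loop. RVE8, RVE4 and RVE6 bind the same element but activate evening genes, with the LNK proteins as coactivators. RVE1, RVE2 and RVE7 resemble CCA1 in their DNA-binding domain and act mostly on clock outputs: RVE1 on auxin synthesis, seed dormancy and greening, RVE7 downstream of the phytochrome photoreceptors. At ZT 10 h of a short day, the morning peak of CCA1 and LHY has passed.

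The MYB domain of the family ends in the signature from which the SHAQKYF-type MYB proteins take their name. The coding sequence of that end is printed to show the 2 branches of the family, with the codons of the signature in capitals. The 60 bases are from RefSeq (TAIR10.1), 5′ to 3′ on the coding strand of the longest coding sequence of each gene.
CCA1: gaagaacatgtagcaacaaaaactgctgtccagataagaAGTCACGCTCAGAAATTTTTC
LHY: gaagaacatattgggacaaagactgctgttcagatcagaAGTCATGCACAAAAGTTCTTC
RVE1: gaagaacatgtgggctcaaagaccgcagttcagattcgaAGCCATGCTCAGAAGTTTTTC
RVE2: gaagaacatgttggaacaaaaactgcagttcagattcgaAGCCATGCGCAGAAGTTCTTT
RVE7: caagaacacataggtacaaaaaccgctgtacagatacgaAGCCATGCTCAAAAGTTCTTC
RVE4: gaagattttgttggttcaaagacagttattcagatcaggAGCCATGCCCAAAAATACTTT
RVE6: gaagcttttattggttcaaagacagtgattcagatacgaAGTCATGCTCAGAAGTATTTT
RVE8: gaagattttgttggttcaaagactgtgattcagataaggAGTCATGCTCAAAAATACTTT
LHY and RVE2 matched CCA1 at 48 of these 60 bases and RVE1 and RVE7 at 47, against 42 for RVE8, 40 for RVE6 and 39 for RVE4. RVE4 matched RVE8 at 55 bases and RVE6 matched it at 52. Over whole coding sequences RVE4 and RVE8 had 79.5% identical aligned bases and CCA1 and LHY had 68.5%. RVE4 shared 11 of its 31-base words with RVE8, and CCA1, RVE1, RVE2 and RVE6 shared none with any other gene. RVE7 shared many with another gene, AT3G10113, which is shown further on. In TAIR10.1, CCA1 lies at chr2:19245591-19248915, LHY at chr1:33365-37871, RVE1 at chr5:5690225-5692992, RVE2 at chr5:14751344-14753088, RVE7 at chr1:6305814-6308243, RVE4 at chr5:648648-651979, RVE6 at chr5:21359001-21362273 and RVE8 at chr3:2946239-2949017.

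Each printed level is in TPM (transcript abundance, reads scaled by transcript length and by library), which keeps no read total, so the depth is unknown. The RIL libraries listed 7999 to 10459 genes at 0 in the light and 8017 to 10268 in the dark. The summed leaf markers (RBCS1A, LHCB1.3, RCA) reached 25606 to 46491 TPM in light RILs and 25516 to 38768 TPM in dark RILs. The summed root markers (COBL9, TIP2;3, WER) reached 11.7 to 154.4 TPM in light RILs and 10.5 to 151.3 TPM in dark RILs, and the reproductive markers (AP3, PI) at most 3.33 TPM in light RILs and 4.33 TPM in dark RILs. The summed markers of seed storage proteins (SESA1, CRA1, CRU3) varied more, at 0.45 to 6733 TPM in light RILs and 0.97 to 12682 TPM in dark RILs, 8151 and 9210 TPM in light and dark Tnz-1, and 200.5 and 298.5 TPM in light and dark Ws-2. In bulk seedlings, fewer cells of a type and less RNA per cell cannot be told apart. The lines were also compared in 294 genes that 1 parent expressed and the other did not. The light and dark libraries of a line agreed on 83.3% to 99.0% of these genes (median 96.6%), against a median of 60.2% between lines. Lines 2 and 47 had the lowest agreement between their own libraries, at 83.3% and 86.4%, and line 2 matched a library of another line at 84.4%. In the other direction, 26 lines fell into 11 groups whose members agreed on at least 90% of these genes in both conditions, so the lines are not all independent. The light response and the correlations of the 6 genes tested, with each other, with clock partners and between conditions, but no other test, were therefore repeated with 48 lines, which keep 1 line of each group and leave out lines 2 and 47.

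The 8 genes differed widely in level at ZT 10 h. RVE2 was highest, with 76.9 to 466.7 TPM in the light (median 178.2, mean 202.6 ± 76.1, SD, n = 65) and 48.8 to 245.5 TPM in the dark (median 100.4, mean 109.8 ± 37.3). It made up a mean 70.7% of the summed TPM of the 8 genes in the light and 50.5% in the dark. RVE4 followed with 20.8 to 86.8 TPM in the light (median 39.8) and 32.9 to 87.1 TPM in the dark (median 44.3). RVE7 had 3.99 to 30.96 TPM in the light (median 11.1) and 10.2 to 86.4 TPM in the dark (median 36.4). RVE6 had 11.46 to 26.97 TPM in the light (median 14.9) and 6.54 to 14.8 TPM in the dark (median 10.01). RVE1 had 1.55 to 14.7 TPM in the light (median 5.58) and 2.49 to 15.3 TPM in the dark (median 6.59).

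CCA1, LHY and RVE8 lay near the lower end of the scale. CCA1 had 0.77 to 4.93 TPM in the light (median 1.67) and 0.41 to 4.41 TPM in the dark (median 1.36), and was below 1 TPM in 6 light and 17 dark RIL libraries of 65 each. RVE8 had 0.19 to 2.93 TPM in the light (median 0.95) and 0 to 2.60 TPM in the dark (median 0.66), below 1 TPM in 33 light and 49 dark libraries and listed at 0 in 2 dark libraries. LHY had 0 to 1.64 TPM in the light (median 0.61) and 0.07 to 1.82 TPM in the dark (median 0.45), below 1 TPM in 59 light and 62 dark libraries and listed at 0 in 1 light library. The mean TPM over all RIL libraries was 0.571 for LHY and 0.945 for RVE8, under the 1 TPM set for the main test. These are the 2 genes near the detection floor.

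The order of the mean levels in the light was RVE2, RVE4, RVE6, RVE7, RVE1, CCA1, RVE8, LHY, and in the dark RVE7 stood above RVE6. RVE2 exceeded RVE4 in 65 of 65 light libraries and in 63 of 65 dark ones. In the light the intervals of mean ± SD overlapped between RVE6 and RVE7, RVE7 and RVE1, CCA1 and RVE8, and RVE8 and LHY. In the dark they overlapped between RVE4 and RVE7, RVE6 and RVE1, CCA1 and RVE8, and RVE8 and LHY. Within single libraries RVE7 exceeded RVE1 in 65 of 65 light libraries and RVE4 exceeded RVE7 in 49 of 65 dark ones.

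**Figure D1:**
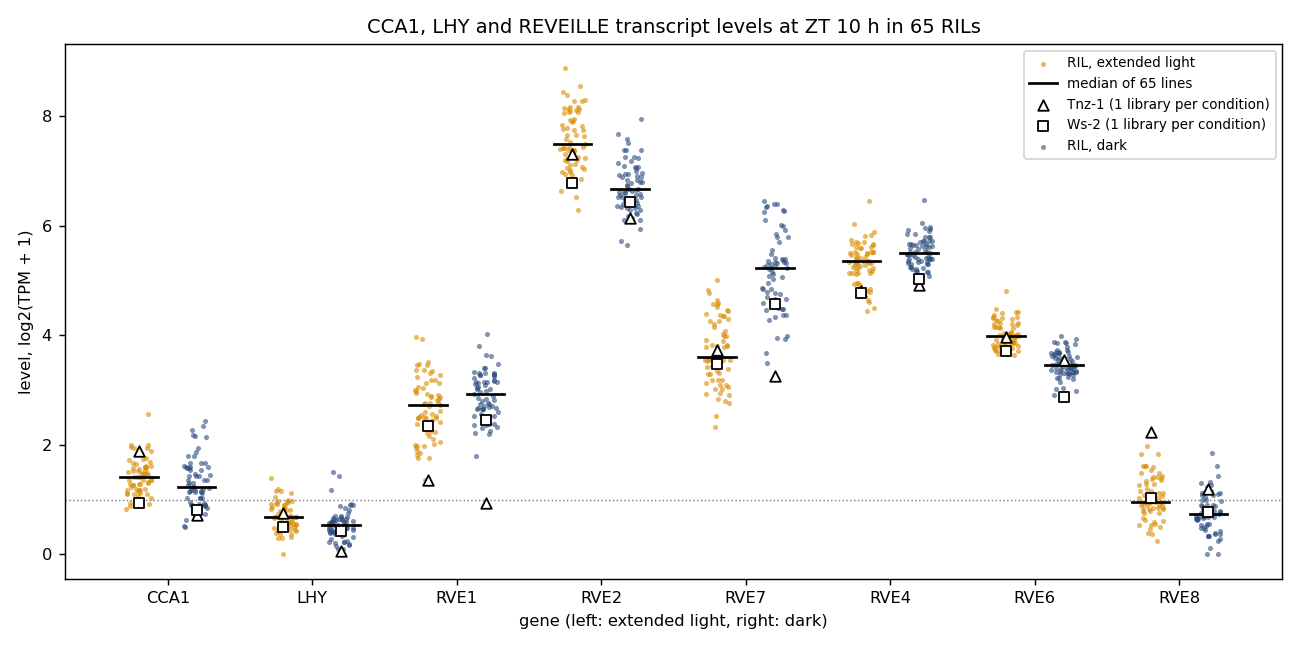
Levels of the 8 genes as log2(TPM + 1) in 65 RILs, with extended light left and dark right for each gene. Points are lines, bars are medians, triangles are Tnz-1 and squares Ws-2 (1 library each), and the dotted line marks 1 TPM. RVE2 is highest in both conditions, RVE7 is lower in the light than in the dark, and LHY and RVE8 lie around or under the line.

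To ask which of these genes responded to 2 h of added light, light RIL libraries were compared with dark ones (limma on log2(TPM + 1), Benjamini-Hochberg adjustment over 18111 genes). Of the 6 genes with a mean of at least 1 TPM, 5 passed an adjusted p of 0.05, with RVE2 and RVE6 higher and RVE7, RVE1 and RVE4 lower in the light. That share is to be read against 61.6% of all genes tested, with 36.1% higher and 25.5% lower in the light. RVE7 alone also passed an absolute log2 change of at least 1, as did 5.48% of all genes tested (2.66% higher and 2.83% lower in the light). The median log2 change over these 6 genes was -0.05, and over all genes tested it was 0.05. With 48 lines the count was also 5 of 6, beside 55.6% of all genes tested.

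RVE7 had the largest change of the 6, with a mean of 13.3 ± 6.21 TPM in the light and 39.2 ± 20.1 TPM in the dark (SD, n = 65 each). Its log2 change was -1.45 (SE 0.117, adjusted p = 7.05e-23, limma), and it was lower in the light in 64 of 65 lines. The exception was line 48, with 20.0 TPM in the light and 11.7 TPM in the dark. The other 64 changes reached down to -2.89.

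RVE2 moved the other way, with a mean of 202.6 ± 76.1 TPM in the light and 109.8 ± 37.3 TPM in the dark (SD, n = 65 each). Its log2 change was 0.86 (SE 0.0861, adjusted p = 8.20e-17, limma), and it was higher in the light in 63 of 65 lines. The exceptions were line 17, with 76.9 TPM in the light and 99.0 TPM in the dark, and line 10, with 120.7 and 121.2 TPM. RVE6, an activator of evening genes, had 15.5 ± 2.90 TPM in the light and 10.3 ± 1.86 TPM in the dark. Its log2 change of 0.55 (SE 0.0419, adjusted p = 1.58e-24, limma) was smaller than that of RVE2 but the most even of the 6, with an SD over lines of 0.259 log2 units and 64 of 65 lines higher in the light.

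RVE1 and RVE4 had the smallest changes of the 5. RVE1 averaged 5.91 ± 2.73 TPM in the light and 6.86 ± 2.38 TPM in the dark (SD, n = 65 each), and its log2 change was -0.23 (SE 0.0870, adjusted p = 0.0163, limma), lower in 42 lines and higher in 22. RVE4, another activator of evening genes, averaged 40.6 ± 10.7 TPM in the light and 46.2 ± 9.28 TPM in the dark, and its log2 change was -0.20 (SE 0.0553, adjusted p = 0.000808, limma), lower in 46 lines and higher in 19. For both genes the ranges over lines overlapped between conditions.

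CCA1 did not pass, with 1.74 ± 0.680 TPM in the light and 1.62 ± 0.895 TPM in the dark (SD, n = 65 each). Its log2 change was 0.10 (95% interval -0.04 to 0.23, adjusted p = 0.214, limma), with 40 lines higher in the light and 25 lower. LHY and RVE8 could be tested only without the filter on low values, where a log2(TPM + 1) change understates the fold of a low gene. In that fit 49.1% of all genes passed, 29.2% of them higher in the light as a share of all. LHY then had a log2 change of 0.15 (adjusted p = 0.00351, limma; higher in 44 of 65 lines), with 0.650 ± 0.298 TPM in the light and 0.492 ± 0.318 TPM in the dark. RVE8 had a log2 change of 0.28 (adjusted p = 0.000112, limma; higher in 45 of 65 lines), with 1.14 ± 0.590 TPM in the light and 0.754 ± 0.471 TPM in the dark. The light and dark ranges of both genes overlapped.

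Other genes of the pathway were taken from a list of 17 clock partners of these factors. Of the 17, 6 were higher in the light, 8 were lower and 3 (TOC1, LUX, LNK2) did not pass, beside 36.1% of all genes tested that were higher and 25.5% that were lower. TOC1 passed too once each line was a replicate block (0.06, adjusted p = 0.0416, limma), which gives 7 higher and 8 lower. In that fit 44.8% of all genes were higher and 32.0% lower in the light. Past a log2 change of 1 were GI (1.98), ELF4 (1.86) and LNK1 (1.297) upward and CHE (-1.40), COR27 (-1.34) and COR28 (-1.34) downward, all by limma over all genes, where 5.48% of genes passed both thresholds. GI and ELF4 are evening genes with the evening element in their promoters, CHE is a repressor of CCA1, and COR27 and COR28 are cold- and blue-light-regulated repressors of clock genes. Of the 2 other REVEILLE genes of the RVE8 branch, RVE5 had a log2 change of 0.59 (adjusted p = 7.78e-27, limma), with 19.3 ± 2.79 TPM in the light and 12.6 ± 2.46 TPM in the dark. RVE3 had a log2 change of 0.70 (adjusted p = 1.95e-07, limma), with means of 1.91 TPM in the light and 0.823 TPM in the dark.

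The size of the change differed between blocks of line numbers. The lines were taken as 1 to 19, 21 to 39, 40 to 57 and 58 to 78, with 17, 16, 16 and 16 lines; the labels do not say whether these blocks were grown or sequenced together. The mean log2 change of RVE1 was -0.61 ± 0.547, -0.35 ± 0.445, 0.42 ± 0.501 and -0.36 ± 0.586 in these 4 blocks (SD over lines). In lines 40 to 57 RVE1 was higher in the light in 14 of 16 lines, and outside them in 8 of 49. RVE2 changed by 0.56 ± 0.401, 0.71 ± 0.342, 1.38 ± 0.410 and 0.80 ± 0.318 log2 units, RVE7 by -1.76 ± 0.397, -1.57 ± 0.499, -0.92 ± 0.591 and -1.55 ± 0.499, and RVE4 by -0.39 ± 0.397, -0.14 ± 0.264, 0.05 ± 0.346 and -0.31 ± 0.304. RVE6 was level, at 0.53, 0.54, 0.52 and 0.60. A limma test of the difference between the 4 blocks passed for RVE1 (adjusted p = 0.00542) and RVE2 (adjusted p = 0.0482), where 5.33% of all genes passed. With the line as a replicate block in the fit, which pairs its 2 libraries, RVE7 (adjusted p = 0.000653) and RVE4 (adjusted p = 0.00989) passed as well, and so did 25.6% of all genes in that fit.

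For RVE2 the blocks differed more in the light than in the dark. RVE2 in the light had a median of 278.4 TPM in lines 40 to 57, and 146.1, 168.2 and 192.5 TPM in lines 1 to 19, 21 to 39 and 58 to 78. Its dark medians were 110.9 TPM in lines 40 to 57 and 99.0, 92.5 and 107.2 TPM in the other 3 blocks. RVE1 had medians of 7.91 TPM in the light and 5.01 TPM in the dark in lines 40 to 57. In the other 3 blocks its light medians were 4.72, 4.81 and 5.10 TPM and its dark medians 7.62, 7.04 and 7.69 TPM, so lines 40 to 57 were highest in the light and lowest in the dark. The summed seed storage markers had a median of 158.5 TPM in the light and 225.1 TPM in the dark in lines 40 to 57, inside the range of the other blocks, and their part in the result was not tested. The number of genes listed at 0 had medians of 8630 in the light and 8565 in the dark in lines 40 to 57. In the other 3 blocks its light medians were 8410, 8506.5 and 8588 and its dark medians 8675, 8786.5 and 8678. That number was thus highest in the light and lowest in the dark in lines 40 to 57, and its part in the result was not tested. Without lines 40 to 57 the log2 change of RVE1 was -0.44 (adjusted p = 3.25e-05, limma), and CCA1 passed with 0.17 (adjusted p = 0.0452, limma). Within lines 40 to 57 alone RVE1 was higher in the light, by 0.42 (adjusted p = 0.0298, limma).

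**Figure D2:**
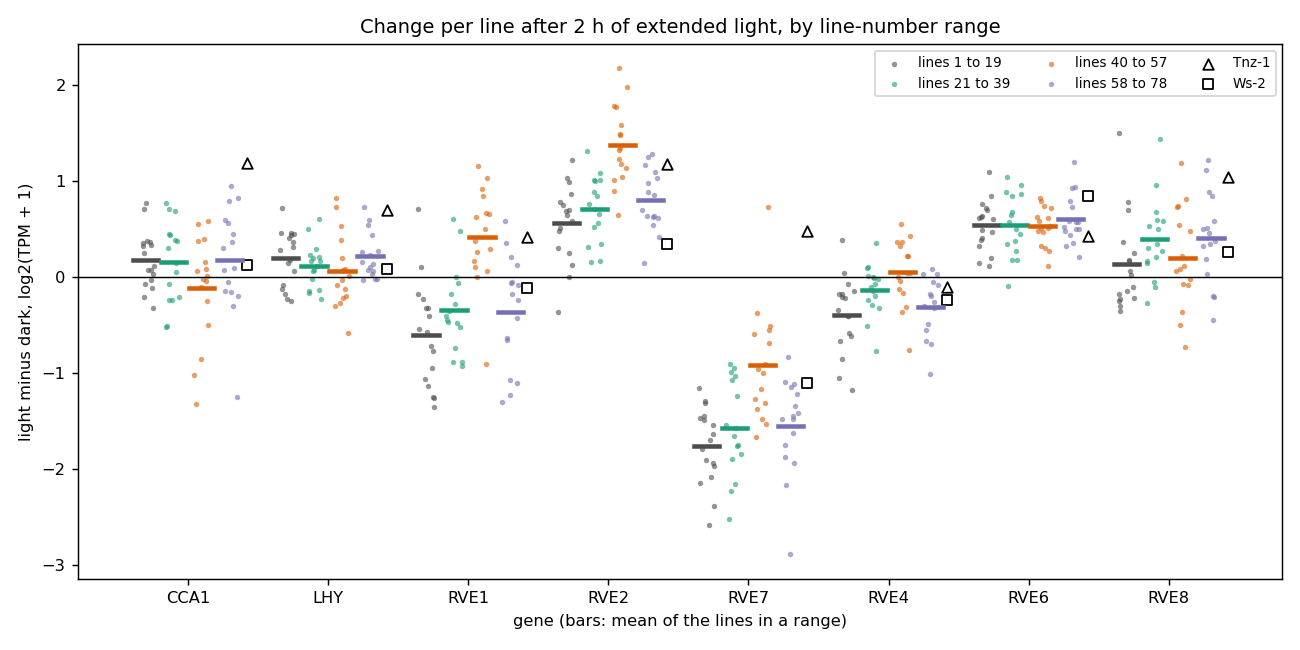
Change per line, light minus dark on the log2(TPM + 1) scale, for the 8 genes. Points are lines coloured by block of line numbers, bars are block means, and triangles and squares are Tnz-1 and Ws-2. In lines 40 to 57 the bars of RVE1, RVE2, RVE7 and RVE4 lie above those of the other 3 blocks, and those of RVE6 do not differ visibly.

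RVE7 has a near-identical copy, AT3G10113, on chromosome 3, which is shown here because it limits the RVE7 value. The copy's coding sequence of 1011 bases aligned with the 1119 bases of RVE7 over 956 bases with 2 differences, while RVE7 held 75 bases within this alignment that the copy lacked. Of the 31-base words of the annotated transcripts, 48.5% of those of RVE7 and 87.0% of those of AT3G10113 were shared. The stretch of 120 coding bases around the first difference, which is in capitals, is from RefSeq (TAIR10.1). It spans coding bases 251 to 370 of RVE7 and 218 to 337 of AT3G10113.
RVE7: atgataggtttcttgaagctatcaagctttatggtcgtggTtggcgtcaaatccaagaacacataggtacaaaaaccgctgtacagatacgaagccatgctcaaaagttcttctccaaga
AT3G10113: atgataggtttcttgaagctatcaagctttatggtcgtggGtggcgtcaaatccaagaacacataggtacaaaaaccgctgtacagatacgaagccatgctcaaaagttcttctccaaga
Reads from such stretches can be assigned to either row. AT3G10113 was listed at 0 in the light and the dark library of Ws-2 and had 3.91 TPM in the light and 1.84 TPM in the dark in Tnz-1. Over the RILs it was at 0 in both libraries in 27 lines and above 0 in both in 32, and reached 12.2 TPM in the light and 30.9 TPM in the dark. Among lines with at least 1 TPM of the copy, its level followed that of RVE7. Pearson's r was 0.803 over 31 lines in the light (Spearman's rho 0.841, r 0.815 without the 2 lines farthest from the median) and 0.911 over 32 lines in the dark (rho 0.933, r 0.908), with a permutation p of 1e-05 each, the smallest that 100000 permutations can give. Since the 2 rows can share reads, this is a description of the values and not of regulation.

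AT3G10113 itself had a log2 change of -0.62 (adjusted p = 0.0489, limma), and it passed in 35 of 65 fits that left out 1 line each. With both rows added up, the mean was 15.7 ± 8.996 TPM in the light and 45.7 ± 27.4 TPM in the dark (SD, n = 65 each). The log2 change of the sum was -1.46 (adjusted p = 1.96e-18, limma), against -1.45 for RVE7 alone.

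**Figure D3:**
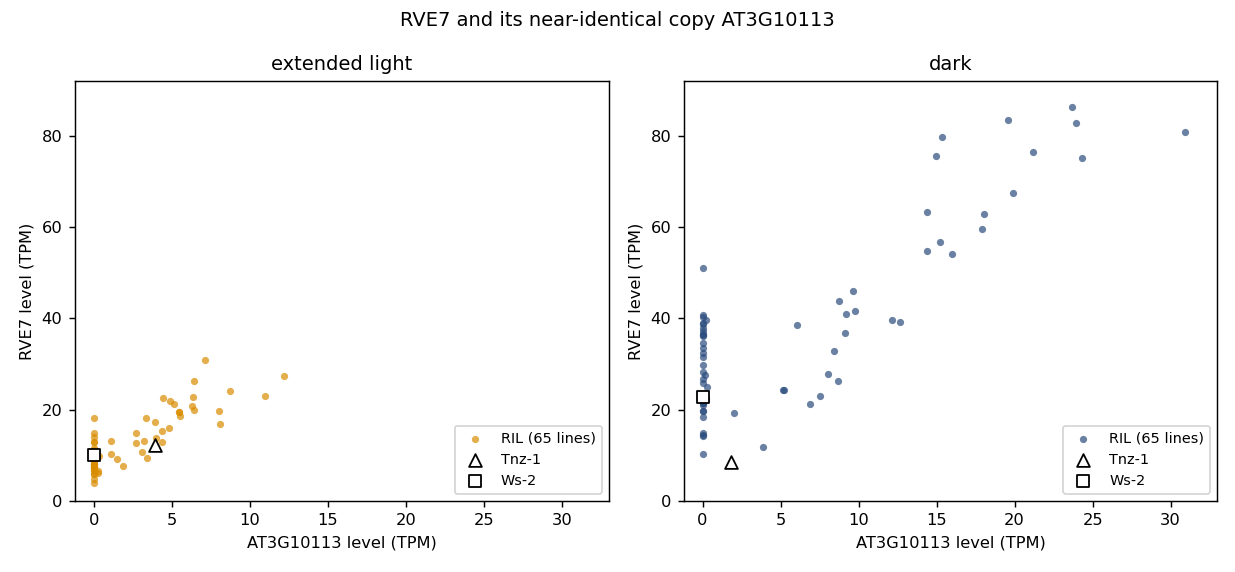
RVE7 level against the level of AT3G10113, both in TPM, in 65 RILs (points), Tnz-1 (triangle) and Ws-2 (square), with extended light left and dark right. A column of lines with AT3G10113 at 0 stands beside lines in which both levels rise together, up to 30.9 TPM of the copy in the dark.

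To ask whether the level of each gene was a property of the line, the light and dark libraries of the same line were compared. An effect of the line, with treatment in the model, passed for 5 of the 6 genes (limma's moderated F-test over all genes), a share to be read against 83.9% of all genes. The intraclass correlation, the share of variance that lies between lines, was 0.62 for RVE7, 0.53 for RVE2, 0.40 for RVE6, 0.33 for RVE4 and 0.27 for CCA1. RVE7 can share reads with AT3G10113, which was at 0 in both libraries of 27 lines and above 0 in both of 32. The copy itself had an intraclass correlation of 0.897, and how far it enters the RVE7 value was not tested. RVE1 did not pass (0.17, adjusted p = 0.0724, limma), and passed after median-of-ratios scaling (0.23, adjusted p = 0.0253) and within blocks of line numbers (0.37, adjusted p = 0.00117). Near the floor and without the filter, LHY had 0.38 (adjusted p = 0.00122) and RVE8 0.17 (adjusted p = 0.0915).

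As a direct measure, the light level of each gene was correlated with its dark level over the 65 lines, with permutation tests of 100000 resamples adjusted over 6 genes. RVE7 had r = 0.627 (rho 0.624) and RVE2 r = 0.539 (rho 0.556), each with an adjusted p of 3e-05 for both measures, from the smallest p that the permutations can give. The r of RVE7 carries the same limit from reads shared with AT3G10113. RVE6 had r = 0.404 (rho 0.366; permutation adjusted p = 0.00164 and 0.0061). RVE4 had r = 0.344 (rho 0.219; permutation adjusted p = 0.00777 and 0.0942) and CCA1 r = 0.288 (rho 0.266; permutation adjusted p = 0.0243 and 0.0491). Without the 2 lines farthest from the median, r was 0.612 for RVE7, 0.576 for RVE2 and 0.341 for RVE6, while that of RVE4 fell to 0.163 and that of CCA1 to 0.180, so the last 2 relations rest on those lines. RVE1 had r = 0.175 (rho 0.1004; permutation adjusted p = 0.163 and 0.424). Centred within blocks of line numbers, all 6 passed, with r = 0.708 for RVE7, 0.673 for RVE2, 0.422 for RVE4, 0.383 for RVE1, 0.330 for RVE6 and 0.274 for CCA1. The share of all genes that pass such a correlation was not computed. The related line effect passed for 83.9% of all genes, and for 83.0% within blocks, so passing is common in these data.

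The spread between lines was then compared between the conditions, as the absolute deviation from the group median. None of the 6 genes passed (limma over all genes), where 1.79% of all genes did; at an unadjusted p under 0.05 were CCA1, with a spread 0.11 log2 units smaller in the light (p = 0.0144, adjusted p = 0.229), and RVE1, with a spread 0.10 larger in the light (p = 0.0482, adjusted p = 0.400). The coefficient of variation of TPM over lines was 18.6% for RVE6 in the light and 18.03% in the dark, and 46.8% and 51.2% for RVE7. It was 39.1% and 55.3% for CCA1 and 46.2% and 34.6% for RVE1.

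In the light, the levels of the REVEILLE genes tested correlated positively over lines, while in the dark most of their pairs did not pass. With 10 passing pairs in the light and 3 in the dark, the difference in number was not tested. For the 15 pairs of the 6 genes, r was computed in light levels, in dark levels and in changes per line, and p-values were adjusted over these 45. In the light 10 pairs passed, in the dark 3 and in the change 6, and every passing r was positive. The 10 light pairs were all those among RVE1, RVE2, RVE7, RVE4 and RVE6, with r from 0.32 to 0.65. The lowest, RVE1 with RVE6 (r = 0.324), did not pass by rho (0.207, adjusted p = 0.202), without the 2 farthest lines (r = 0.1996, adjusted p = 0.227) or with the 48 lines (adjusted p = 0.115). This pair passed within blocks of line numbers (r = 0.318, permutation adjusted p = 0.0459) and after median-of-ratios scaling (r = 0.412, permutation adjusted p = 0.00207). With the first principal component removed it also passed (r = 0.476, permutation adjusted p = 0.000771). Its call thus depends on the setting. The light count was 9 by rho, 9 without the 2 lines and 8 with the 48 lines. CCA1 was in no passing pair on the log2(TPM + 1) scale over the 65 lines, and its light r with the other 5 lay between -0.07 and 0.13. The light levels of these 5 genes also went with the summed seed storage markers (both as log2(TPM + 1)), at r = -0.496 for RVE1, -0.333 for RVE7, -0.309 for RVE2, -0.296 for RVE4 and -0.280 for RVE6, against 0.07 for CCA1. In the dark the values were -0.152, -0.272, -0.227, -0.076 and 0.059 for the same 5 genes and 0.310 for CCA1. These are descriptions over 65 lines, and the part of the markers in the coupling was not tested. For scale, 24.5% of all tested genes had an absolute r of at least 0.3 with RVE7 in the light and 4.79% one of at least 0.5, against 3.01% and 0.011% for CCA1. Over the 10 light pairs, 0.812% to 21.6% of all tested genes had as large an absolute r with the first gene of the pair. The highest shares were 21.6% for RVE1 with RVE6 and 16.8% for RVE2 with RVE6, and the lowest was 0.812% for RVE7 with RVE4. With the 48 lines, 17 pairs passed. CCA1 with RVE2 in the dark, at r = -0.276 (permutation adjusted p = 0.0584), stood close to the threshold. It passed with the 48 lines (r = -0.364, adjusted p = 0.0312), without the 2 farthest lines (r = -0.329, adjusted p = 0.0262), with pseudocount 0.1 (r = -0.303, adjusted p = 0.0312) and after median-of-ratios scaling (r = -0.317, adjusted p = 0.0239).

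The closest pair in light and in dark levels was RVE7 and RVE4, from different branches of the family. Every r of RVE7 with other genes over lines carries the limit from reads shared with AT3G10113. None was repeated with the 2 rows added up, so the part of the copy was not tested. Their r was 0.646 in the light (rho 0.653, 0.626 without the 2 farthest lines; permutation adjusted p = 7.5e-05) and 0.527 in the dark (rho 0.485, 0.514 without them; permutation adjusted p = 7.5e-05). In the light 0.812% of all tested genes had as large an r with RVE7, and in the dark 1.47%. RVE1 and RVE4 also passed in both conditions, with r = 0.517 in the light and 0.430 in the dark (rho 0.543 and 0.451; permutation adjusted p = 7.5e-05 and 0.00131). RVE4 and RVE6, which are both activators of evening genes, had r = 0.377 in the light and 0.315 in the dark (rho 0.317 and 0.321; permutation adjusted p = 0.00627 and 0.0250), and neither passed with the 48 lines (adjusted p = 0.0624 and 0.158).

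RVE7 and RVE6 differed between conditions. Their r was 0.568 in the light (rho 0.542; permutation adjusted p = 7.5e-05) and 0.132 in the dark (rho 0.060; permutation adjusted p = 0.498). The difference of 0.437 was tested by exchanging the 2 libraries of a line, with an adjusted p of 0.0398 over 15 pairs (permutation), and centred within blocks of line numbers its adjusted p was 0.0657. No other pair passed the test of this difference.

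In the changes per line, RVE1 and RVE4 had r = 0.572 (rho 0.596; permutation adjusted p = 7.5e-05), RVE2 and RVE4 r = 0.504 (rho 0.547; permutation adjusted p = 0.000225) and RVE1 and RVE2 r = 0.476 (rho 0.489; permutation adjusted p = 7.5e-05). Centred within blocks of line numbers, 2 of the 6 change pairs passed, RVE1 with RVE4 (r = 0.443) and RVE2 with RVE4 (r = 0.356). RVE1 with RVE2 then had r = 0.138 (adjusted p = 0.517). With the first principal component of the changes removed, RVE1 with RVE4 alone passed of the 6 (r = 0.305, adjusted p = 0.0424), and RVE2 with RVE4 had r = 0.167, RVE1 with RVE2 0.10, RVE7 with RVE4 0.067, RVE1 with RVE7 0.028 and RVE2 with RVE7 -0.067. In the light 7 pairs passed within blocks and in the dark 3.

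**Figure D4:**
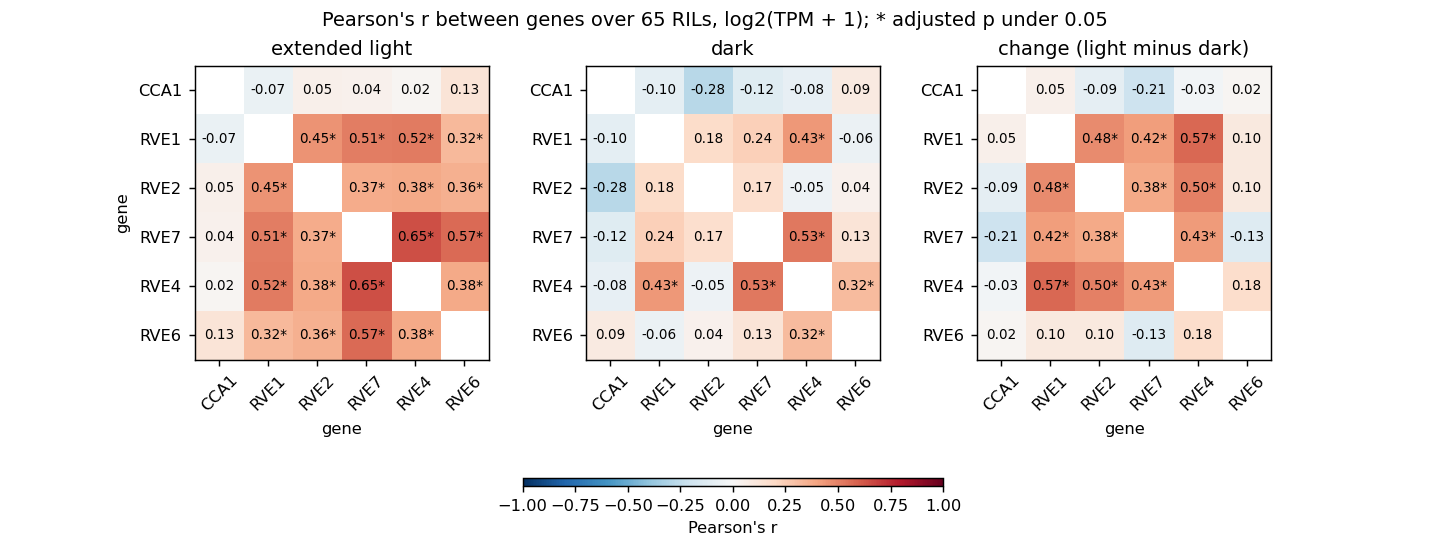
Pearson's r between CCA1 and 5 REVEILLE genes over 65 RILs, in light levels, dark levels and changes per line (red positive, blue negative, stars mark an adjusted p under 0.05 over 45 pairs). All 10 pairs of REVEILLE genes carry a star in the light, 3 do in the dark, and the CCA1 row carries none.

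The same 6 genes were set against 16 clock partners, leaving out LUX because its levels fell into separate clusters of lines. Of 288 pairs, 75 passed: 30 in the light (24 positive, 6 negative), 18 in the dark (6 positive, 12 negative) and 27 in the change (19 positive, 8 negative). For scale, 23.3% to 26.7% of all tested genes had an absolute r of at least 0.3 with a REVEILLE gene in the light, and 3.01% with CCA1. Over the 6 genes this share was 9.12% to 21.65% in the dark and 4.96% to 23.9% in the change. The share of all genes that pass the permutation test was not computed. Centred within blocks of line numbers 48 passed, and with the 48 lines 42 did. With the first principal component removed 52 passed, 9 of them in the change. Of the 8 change pairs with an absolute r of at least 0.5, that removal left RVE2 with LNK1 (r = -0.437, adjusted p = 0.00504) and RVE1 with ELF3 (r = 0.326, adjusted p = 0.0472) past the threshold. The pairs named below include all 16 with an absolute r of at least 0.5. For these, the absolute rho was between 0.445 and 0.653 (permutation adjusted p of at most 0.00301), and the absolute r without the 2 farthest lines between 0.424 and 0.641.

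Among targets and repressors of these factors, TOC1, an evening gene that closes the feedback loop with CCA1 and LHY, was coupled with the REVEILLE genes in the light. Its r was 0.653 with RVE7, 0.572 with RVE4 and 0.555 with RVE6 (permutation adjusted p = 0.000262 each), and 0.6003, 0.549 and 0.537 within blocks. In all, 0.729% of all tested genes had as large an r with RVE7 in the light. In the dark the r of TOC1 with the 6 genes was 0.31 at most, and none passed; the difference between conditions was not tested. PRR7, a repressor of CCA1 and LHY, had r = 0.464 with RVE7 in the light (permutation adjusted p = 0.00192; 0.573 within blocks) and 0.522 in the dark (permutation adjusted p = 0.000262; 0.574 within blocks).

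ELF3 is the scaffold of the evening complex, a repressor that acts at night. In the light its r was 0.610 with RVE2 (0.514 within blocks) and 0.522 with RVE6 (0.541 within blocks), both with a permutation adjusted p of 0.000262. In the change per line it was 0.609 with RVE1, 0.535 with RVE7 and 0.511 with RVE2, and 0.421, 0.331 and 0.207 within blocks, where the last did not pass (adjusted p = 0.267). BOA, a MYB-related evening gene close to LUX, had a change r of 0.536 with RVE2 and 0.525 with RVE4, and 0.385 and 0.368 within blocks.

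LNK1 had a change r of -0.636 with RVE2 (permutation adjusted p = 0.000262; -0.483 within blocks), so lines with a larger change of RVE2 had a smaller change of LNK1. LNK3, by contrast, had r = 0.632 with CCA1 in the dark (permutation adjusted p = 0.000262; 0.656 within blocks), a value reached by 0.199% of all tested genes, while the only passing r of a REVEILLE gene with it was -0.330, for RVE7 in the dark. COR27 had r = -0.483 with RVE6 in the light (permutation adjusted p = 0.00096; -0.404 within blocks) and -0.525 in the dark (permutation adjusted p = 0.000384; -0.456 within blocks). COR28 had a change r of 0.553 with RVE2 and 0.5002 with RVE1 that did not pass within blocks (0.299 and 0.255, adjusted p = 0.0878 and 0.142). CCA1 passed with 8 of its 48 partner pairs, and RVE2 with 20. For scale, 3.01%, 21.65% and 4.96% of all tested genes reached an absolute r of 0.3 with CCA1 in light, dark and change. For RVE2 these shares were 24.9%, 14.6% and 22.7%.

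**Figure D5:**
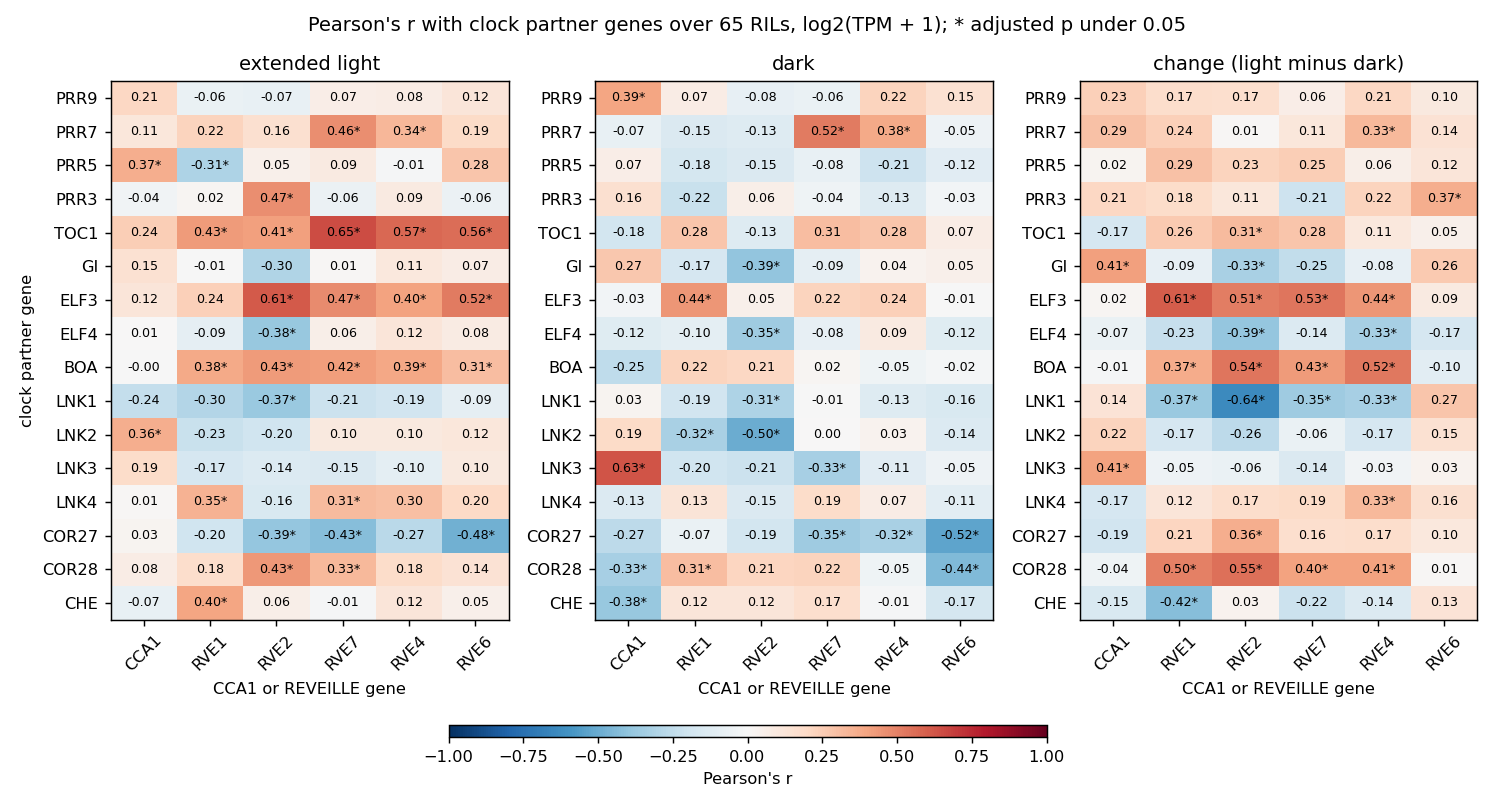
Pearson's r of CCA1 and 5 REVEILLE genes (columns) with 16 clock partners (rows) over 65 RILs, in light levels, dark levels and changes per line (stars mark an adjusted p under 0.05 over 288 pairs). TOC1, ELF3 and BOA rows are red in the light for the REVEILLE genes, COR27 is blue against RVE6 in light and dark, and LNK1 is blue against RVE2 in the change.

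For each of the 6 genes, the 3 other genes of at least 5 TPM whose level was most alike over lines were taken, ranked by the smaller of the light and the dark r. These r values are descriptions over 65 lines that share libraries. RVE2 was closest to NdhM (AT4G37925, a subunit of the chloroplast NADH dehydrogenase-like complex; r = 0.731 in the light and 0.697 in the dark), followed by the bZIP2 transcription factor gene AT2G18160 and AT2G18162, which held identical values (0.672 and 0.671). RVE7 was closest to AT1G19660 (0.792 and 0.660), AT3G60340 (0.739 and 0.656) and the sugar transporter gene STP1 (0.725 and 0.609). RVE4 was closest to FHA2 (0.710 and 0.667), CAC3 and MAC3B, and RVE6 to UBC33 (0.681 and 0.628), AT1G15940 and AT5G49430. RVE1 was closest to CYCP2;1 (0.627 and 0.577), SSL4 and AT1G03610, and CCA1 to AT3G16530 (0.515 and 0.513), WRKY33 and APK2A.

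The 250 bases before the annotated gene start were searched on both strands for 3 motifs. The evening element AAAATATCT was in the window of 1 of the 8 genes, RVE7, and in 2.36% of 27443 windows of all genes. The CCA1-binding site AAAAATCT was in those of RVE2 and RVE6 and in 6.69% of all windows. The G-box CACGTG, bound by bHLH and bZIP factors, was in those of CCA1, LHY, RVE1 and RVE2 and in 6.49% of all windows. None of the 3 was in the windows of RVE4 and RVE8, which says only that these letters are not there. The windows of the 3 genes with the largest changes are printed, with the motifs in capitals, from RefSeq (TAIR10.1).
RVE7, chr1:6308244-6308493, minus strand: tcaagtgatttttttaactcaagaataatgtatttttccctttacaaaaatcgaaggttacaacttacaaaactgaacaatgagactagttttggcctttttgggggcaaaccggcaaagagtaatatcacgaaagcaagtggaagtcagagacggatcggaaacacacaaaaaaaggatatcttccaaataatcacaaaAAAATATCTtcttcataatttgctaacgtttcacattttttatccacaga
RVE2, chr5:14753089-14753338, minus strand: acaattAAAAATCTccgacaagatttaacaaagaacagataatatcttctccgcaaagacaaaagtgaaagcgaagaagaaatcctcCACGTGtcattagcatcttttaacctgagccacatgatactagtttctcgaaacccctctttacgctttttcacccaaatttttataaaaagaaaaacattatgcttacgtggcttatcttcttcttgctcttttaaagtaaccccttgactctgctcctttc
RVE6, chr5:21362274-21362523, minus strand: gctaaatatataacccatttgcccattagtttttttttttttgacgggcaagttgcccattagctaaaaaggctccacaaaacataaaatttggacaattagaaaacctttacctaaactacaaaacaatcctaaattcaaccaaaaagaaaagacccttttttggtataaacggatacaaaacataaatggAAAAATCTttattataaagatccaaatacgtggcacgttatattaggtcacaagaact
The evening element of RVE7 begins 50 bases before the gene start, the CCA1-binding site of RVE6 58 bases before it, and the G-box and the CCA1-binding site of RVE2 163 and 244 bases before it.

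The parents were compared last, with 1 library per accession and condition and so without a test. RVE8 had 3.69 TPM in the light and 1.29 TPM in the dark in Tnz-1, against 1.04 and 0.71 TPM in Ws-2, and the light value of Tnz-1 was above all 65 light RILs. RVE1 had 1.55 TPM in the light and 0.92 TPM in the dark in Tnz-1, against 4.06 and 4.50 TPM in Ws-2, and no RIL lay below Tnz-1 in either condition. CCA1 had 2.72 TPM in the light and 0.64 TPM in the dark in Tnz-1, against 0.92 and 0.76 TPM in Ws-2. LHY had 0.68 and 0.04 TPM in Tnz-1, against 0.42 and 0.34 TPM in Ws-2, all near the floor. RVE2 had 156.9 TPM in the light and 69.1 TPM in the dark in Tnz-1, against 108.9 and 85.5 TPM in Ws-2.

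RVE7 had 12.3 TPM in the light and 8.55 TPM in the dark in Tnz-1, against 10.1 and 22.8 TPM in Ws-2. Its change was 0.48 log2 units in Tnz-1 and -1.11 in Ws-2; all but 1 RIL lay below the Tnz-1 change. RVE4 was alike in the parents, at 26.98 TPM in the light and 29.2 TPM in the dark in Tnz-1, against 26.3 and 31.4 TPM in Ws-2. All 65 dark RILs were above both parents in RVE4, as were 59 of 65 light RILs. This was not particular to RVE4. Dark RILs above both parents numbered 58 for CCA1, 55 for RVE1, 51 for RVE7, 47 for RVE2 and 45 for LHY. For RVE6 and RVE8 they numbered 25 and 7. The share over all genes was not computed. RVE6 had 14.7 TPM in the light and 10.7 TPM in the dark in Tnz-1, against 12.1 and 6.31 TPM in Ws-2. The CCA1 change of 1.18 in Tnz-1 was above that of all 65 RILs, against 0.13 in Ws-2. Among the clock partners, the Tnz-1 changes of COR27, PRR5 and TOC1 were above those of all 65 RILs too. The Tnz-1 libraries also held 8151 and 9210 TPM of seed storage transcripts in light and dark, against 200.5 and 298.5 TPM in Ws-2, and the part of this in the parental differences was not tested.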

How the data were processed

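Poly(A) RNA from whole seedlings was sequenced from directional libraries, per the labels' protocols. The authors deposited 1 TPM table, with values to 2 decimals, that holds 28775 genes and 134 libraries; columns sum to 1000000 within rounding, and 0 columns lacked a sample. The submitters' processing notes name cutadapt 3.4, Salmon 1.6.0, GATK without a version, and the build TAIR10, with no roles. TPM keeps no depth. How reads shared by near-identical genes were assigned is not given in the sources used here.

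Values were taken as log2(TPM + 1). The 18111 genes with a mean of at least 1 TPM over the 130 RIL libraries were tested with limma 3.58.1 (lmFit, eBayes with trend) in R 4.3.3, with Benjamini-Hochberg adjustment over all of them. Light response, line effect and spread (absolute deviation from the group median) were fitted without a block. Correlations used Pearson's r and Spearman's rho with two-sided permutation tests of 100000 resamples in Python 3.11.15 with numpy 2.4.6. The main limma tests and the plain correlation test were also run on simulated data with known changes. The paired test between ranges and the exchange test of r between conditions were not. Line numbers pair the libraries, since by label both come from the same inbred line. The deviations of a line's 2 libraries correlated over genes with r from 0.492 to 0.886 (median 0.772), against a median of -0.02 between lines. By this r, the dark library was closest to the light library of its own line in 58 of 65 lines, and closer to that of another line in the rest. Nothing says whether a line's seedlings came from separate cultures, so p-values measure the spread between these lines.

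The 8 genes, the 17 partners and the marker lists were chosen with earlier results of these data known. Named genes were the 8 genes, 3 relatives (RVE3, RVE5, AT3G10113), the partners, and for each gene the 3 most alike in level. The alternatives were pseudocount 0.1, median-of-ratios scaling, no filter, a mean of at least 5 TPM, the line as a block, line-number ranges, leaving out each line, removing the first principal component, and leaving out the 2 farthest lines. Added after seeing the data were the fits within and without single ranges, the test between ranges, the sum of RVE7 and AT3G10113, and the set of 48 lines. Sequences, gene positions and names came from the RefSeq annotation of TAIR10.1; the table itself holds no coordinates. Coding sequences were aligned with biopython 1.88.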

Additional observations from a re-analysis of the deposited data

Results flagged for a closer look

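RVE7 and RVE1 moved in opposite directions in the 2 parents. The RVE7 change, light minus dark, was 0.48 log2 units in Tnz-1 and -1.11 in Ws-2. The RVE1 change was 0.41 in Tnz-1 and -0.12 in Ws-2. This was not particular to these 2 genes. Among the clock partners, PRR7, PRR5, ELF3, BOA, LNK2, LNK4 and COR27 also changed in opposite directions, as with COR27 at 0.095 in Tnz-1 and -1.32 in Ws-2. The other partners changed in the same direction in both parents. Each of these changes rests on 1 library per accession and condition, and no difference between the parents was tested.

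The response of 2 genes to light differed between blocks of line numbers by limma's test of the difference, with an adjusted p of 0.00542 for RVE1 and 0.0482 for RVE2. In that fit 5.33% of all genes passed. With the 2 libraries of a line paired, RVE7 (adjusted p = 0.000653, limma) and RVE4 (adjusted p = 0.00989, limma) passed as well, beside 25.6% of all genes. For RVE1 the blocks differed in sign, with a mean change of 0.42 in lines 40 to 57 and between -0.61 and -0.35 in the other 3.

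RVE7 and RVE6 were more closely coupled over lines in the light than in the dark, with r = 0.568 in the light and 0.132 in the dark, a difference of 0.437 (permutation, adjusted p = 0.0398 over 15 pairs). Centred within ranges of line numbers the difference was 0.433 and did not pass (permutation, adjusted p = 0.0657). RVE7 can share reads with AT3G10113, and the part of this in the difference was not tested.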

How the results depend on the processing

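The count of 5 of 6 genes with a light response was 5 under pseudocount 0.1, median-of-ratios scaling, the line as a replicate block, line-number ranges, each fit that left out 1 line (5 in the lowest and the highest) and the set of 48 lines. With a mean of at least 5 TPM it was 5 of 5, which leaves out CCA1. It was 7 of 8 without the filter, 6 without lines 40 to 57, and 5, 3, 4 and 4 within the 4 ranges, where fewer lines enter each fit. Of all genes tested, 49.1% passed without the filter, 59.9% without lines 40 to 57, and 50.7%, 38.9%, 32.4% and 37.9% within the 4 ranges. With a mean of at least 5 TPM 65.7% passed, with the line as a block 76.8% and with the 48 lines 55.6%. Within lines 40 to 57 the sign turned for RVE1 (0.42), CCA1 (-0.12) and RVE4 (0.046). Paired by line, the number of genes whose response differed between ranges was 4, against 2 without the block, while the share of all genes was 25.6%, against 5.33%; beyond this and TOC1, the block changed no call of the 6 genes tested. The spread difference turned sign for RVE2 within ranges (-0.0052) and for RVE6 after median-of-ratios scaling (0.0015), both close to 0. Between light and dark levels, 3 of 6 genes passed without the 2 farthest lines, against 5, and the share over all genes was not computed. Between the genes, 12 of 45 correlations passed within ranges and 14 with the first principal component removed, against 19, and the change r of RVE2 and RVE7 turned to -0.067 under that removal. With clock partners, 48 of 288 passed within ranges, 42 with the 48 lines and 52 with that component removed (9 of the change pairs, against 27), against 75. The cause of these shifts was not tested. Parental differences of low genes moved with pseudocount 0.1, for RVE8 in the light to 1.73. The low levels of LHY, RVE8 and CCA1 limit what their values can show.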
